A study of Homo sapiens with 3 samples.

Results

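The comparison described here sets DLX5 siRNA2 against the negative control in the cell line KYSE140, which was established from a squamous carcinoma of the human esophagus. Its members are all genes with 1 FPKM or more in either sample, which held for 11995 of the 17219 genes with values. FPKM is the number of sequenced fragments scaled to transcript length and to sequencing depth, so levels of different genes can be set side by side. ALG1L2 (1.0 FPKM in the higher sample) lay just inside this minimum and ZNF674 (0.995 FPKM) just outside it.

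The series holds total RNA from 3 samples of this line grown in RPMI1640 with FBS: a negative control, a knockdown with DLX5 siRNA1 and a knockdown with DLX5 siRNA2. The labels do not say what the negative control sample received or give the siRNA sequences and the time after transfection. The design text of the series speaks of retinal RNA in triplicate, while the sample labels name KYSE140 and 1 sample per group. The table gives 2 replicate columns per sample, which carry no labels of their own and may be technical, so each sample counts as 1 value and siRNA1 serves only to show where siRNA2 stood apart.

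DLX5 belongs to the distal-less homeobox genes, whose products bind AT-rich DNA and are best known from craniofacial, limb and bone development. A short interfering RNA is loaded into an Argonaute protein and directs cleavage of the transcript that pairs with it along its length. Through its seed, bases 2 to 8 of the guide strand, it can also pair with 3′ UTRs of other transcripts, in the manner of a microRNA.

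DLX5 was 13.07 and 12.93 FPKM in the 2 control columns and 3.27 and 3.23 FPKM in the siRNA2 columns. Its mean was thus 4.0-fold lower with siRNA2, a difference of −1.72 on the log2(FPKM + 1) scale used throughout, and the 2 groups of columns lay far apart. At the estimated depth of 16950000 to 17400000 reads per column, these values correspond to about 317 and 312 reads in the control and 81 and 80 with siRNA2. With siRNA1 the mean was 3.63 FPKM. The gene lies on chromosome 7, from 96649702 to 96654143 on the minus strand, in the coordinates of the table (hg19).

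The DLX5 transcript of 1422 bases (GENCODE release 29) holds each of 2 words of 8 letters, written here 5′ to 3′ in capitals within 30 bases of context. They are shown because the same words mark the 3′ UTRs of other genes described further on.
DLX5 at base 683: ggtttcagaagACTCAGTAcctcgccttgc
DLX5 at base 1004: gtgcagccagcTCAATCAAttcccacctgc
Both words lie in the coding part, which runs from base 209 to base 1075, and not in the 344-base 3′ UTR. The first is called the first word below, the second is called the second word, and neither could be matched to a siRNA, as the siRNA sequences are not given in the sources used here.

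Some other genes of the family were also lower. DLX3, a homeobox gene of stratified epithelium, went from 2.54 and 2.62 FPKM to 0.53 and 0.54 FPKM with siRNA2, a 4.82-fold lower mean. DLX2 went from 2.88 and 2.75 to 0.89 and 0.93 FPKM, a difference of −1.0 that lies just short of 2-fold on this scale. DLX1 read 5.38 and 5.37 against 2.65 and 3.28 FPKM, a difference of −0.69. In these 3 genes the siRNA2 columns all lay below the control columns. DLX3 and DLX2 were under 1 FPKM with siRNA2 and passed the minimum only through the control, so they are no measure of the family. DLX4 (−0.11) and DLX6 (−0.04), the neighbour of DLX5 on chromosome 7, differed by far less, and the DLX6 columns overlapped. The 3′ UTRs of DLX1, DLX2, DLX3 and DLX4 hold neither word. TP63, which the title of the series names beside DLX5, encodes the master transcription factor of squamous epithelium. It was 94.68 and 89.49 FPKM in the control and 78.86 and 80.00 FPKM with siRNA2, a difference of −0.21.

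Squamous markers were abundant in the control. KRT5, KRT17 and KRT6A, keratins of basal and activated keratinocytes, ranked 4, 5 and 6 among all genes of the control sample by FPKM. SOX2, a transcription factor amplified in many squamous carcinomas, was 217.90 and 205.13 FPKM in the control and 268.77 and 284.92 FPKM with siRNA2. SFN, the epithelial 14-3-3 sigma protein, was 713.82 and 702.44 against 331.58 and 333.70 FPKM. Of the marker lists for other cells, 3 of 12 fibroblast, 1 of 10 endothelial, 3 of 12 leukocyte, 1 of 15 retina, 4 of 10 neuroendocrine and 3 of 13 glandular genes reached the minimum. The summed level of the fibroblast list was 26.5 FPKM in the control and 17.2 FPKM with siRNA2, that of the leukocyte list 11.5 and 7.46 FPKM, and that of the retina list 4.51 and 4.14 FPKM. Among fibroblast and retina markers, 7 and 6 genes were under 0.1 FPKM in the control. The neuroendocrine list summed to 76.5 and 125 FPKM and the glandular list to 95 and 57.4 FPKM; their part in any result was not tested.

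With 1 sample per group there is no test of the knockdown itself, and genes were called by size, at least 2-fold on the log2(FPKM + 1) scale. By this rule 125 genes were higher with siRNA2 (1.04% of those measured) and 233 were lower (1.94%), together 358 or 2.98%. At 1.5-fold these numbers were 554 (4.62%) and 817 (6.81%). The comparison of siRNA1 with the same control gave 138 higher (1.15%) and 297 lower (2.48%). The replicate columns of the 2 samples did not overlap in 122 of the 125 and in 232 of the 233. Without overlap alone, 4922 genes (41.0%) had siRNA2 columns above and 4521 (37.7%) below those of the control, so separate columns by themselves single out little. The median difference over all genes was 0.01, and 5% of genes lay below −0.69 and 5% above 0.57. The genes called lower had a median of 14.8 FPKM in the control and 4.93 FPKM with siRNA2, and those called higher 10.7 and 25.9 FPKM. Among the 676 genes above 100 FPKM in the control, 19 were called lower and 3 higher.

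**Figure D1:**
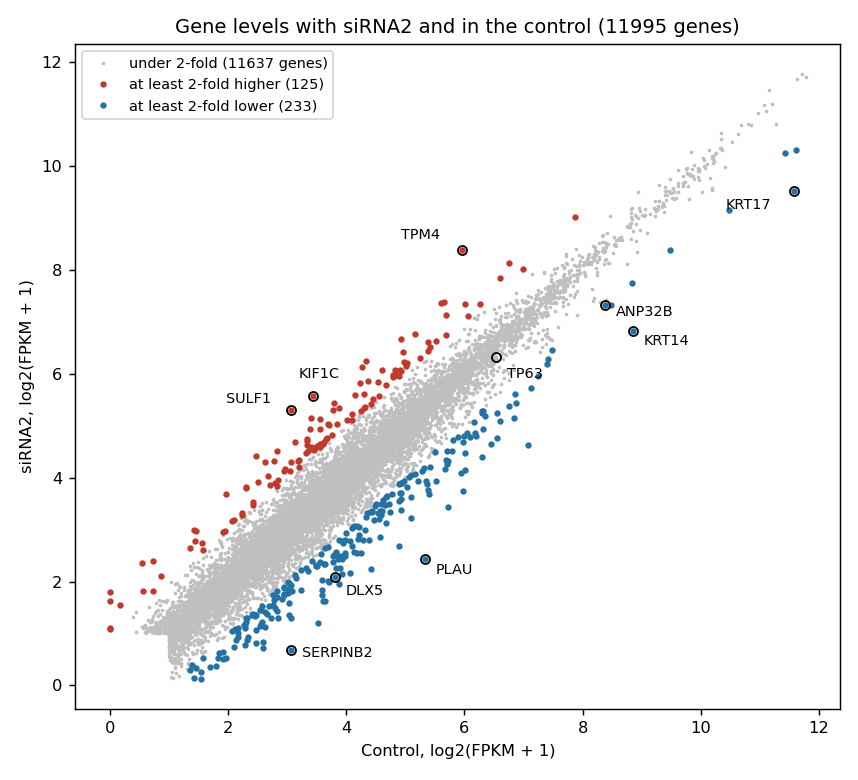
Each point is 1 of the 11995 genes, with its control level across and its siRNA2 level up, both as log2(FPKM + 1). The 233 blue genes lie at least 2-fold below and the 125 red genes at least 2-fold above the control, circles mark genes named in the text, and several keratins stand out as lower genes at the high end.

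For genes of 5 FPKM or more, the columns of 1 sample lay a median of 3.69% apart in the control and 3.49% apart in siRNA2. Measured against that narrow spread, limma called 3679 genes higher (30.7%) and 3314 lower (27.6%) at an adjusted p under 0.05. These p-values cover only the spread between columns of 1 sample and say nothing of separate cultures. In the authors' deposited table, 213 of the genes measured here were higher and 421 lower at a q-value under 0.001 and a log2 fold change of at least 1 in size. DLX5 had a log2 fold change of −2.0 there, beside −1.72 on the log2(FPKM + 1) scale. The authors' counts are thus not at the same threshold as the genes called here by size.

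The gene farthest below the control was PLAU, which encodes urokinase, the protease that activates plasminogen at the cell surface. It went from 40.65 and 38.00 FPKM to 4.50 and 4.25 FPKM with siRNA2, 8.99-fold lower (log2 difference −2.91). Its receptor gene PLAUR went from 25.12 and 25.84 to 10.48 and 9.91 FPKM (−1.24). SERPINB2, which encodes the inhibitor PAI-2 of the same protease, went from 7.75 and 6.98 to 0.64 and 0.56 FPKM, 12.3-fold lower. These 3 were the only members called among 12 measured of the urokinase and clade B serpin list (25.0%, beside 1.94% of all genes called lower). The median of the list was −0.63. SERPINB2 passed the minimum only through the control, so the count and the median are no measure of the list.

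TRIP13, an ATPase of the mitotic checkpoint, went from 61.77 and 61.66 to 12.38 and 12.25 FPKM, 5.01-fold lower. PUDP, a pseudouridine phosphatase, went from 10.94 and 10.15 to 1.19 and 1.39 FPKM, 8.17-fold lower. In both genes the columns were clearly separate. UGCG and ST3GAL5, enzymes of ganglioside synthesis, were 5.24-fold and 5.57-fold lower. SIRT1, a deacetylase, and HIPK3, a kinase, were 5.34-fold and 4.54-fold lower. CDKN1C, the gene of the cell cycle inhibitor p57, was 14.36 and 13.03 against 2.89 and 2.81 FPKM. The 14 genes farthest below the control also held the keratins KRT80, KRT16, KRT17 and KRT14.

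TPM4, a tropomyosin that lines actin filaments, lay farthest above the control. It was 61.42 and 60.87 FPKM in the control and 330.45 and 339.30 FPKM with siRNA2, 5.48-fold higher (log2 difference 2.43). SULF1, an extracellular sulfatase that edits heparan sulfate, went from 7.29 and 7.35 to 38.78 and 38.27 FPKM, 5.26-fold higher. KIF1C, a kinesin motor, went from 9.56 and 10.13 to 47.85 and 45.59 FPKM. All siRNA2 columns of these genes lay far above the control columns. TOMM22, a receptor of the mitochondrial import pore, was 3.91-fold higher and EMC6, a subunit of the membrane protein insertase of the endoplasmic reticulum, 3.77-fold. GANAB, the catalytic subunit of glucosidase II, went from 49.59 and 49.19 to 168.97 and 163.94 FPKM. Further genes among the 14 farthest above the control were OGFR, NOLC1, HDGFRP2, CDK14, SOX21, R3HCC1 and BICD2, at 3.29-fold to 4.45-fold. With siRNA1 the levels of TPM4, TOMM22 and GANAB were 400, 76.2 and 173 FPKM, close to those with siRNA2.

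**Figure D2:**
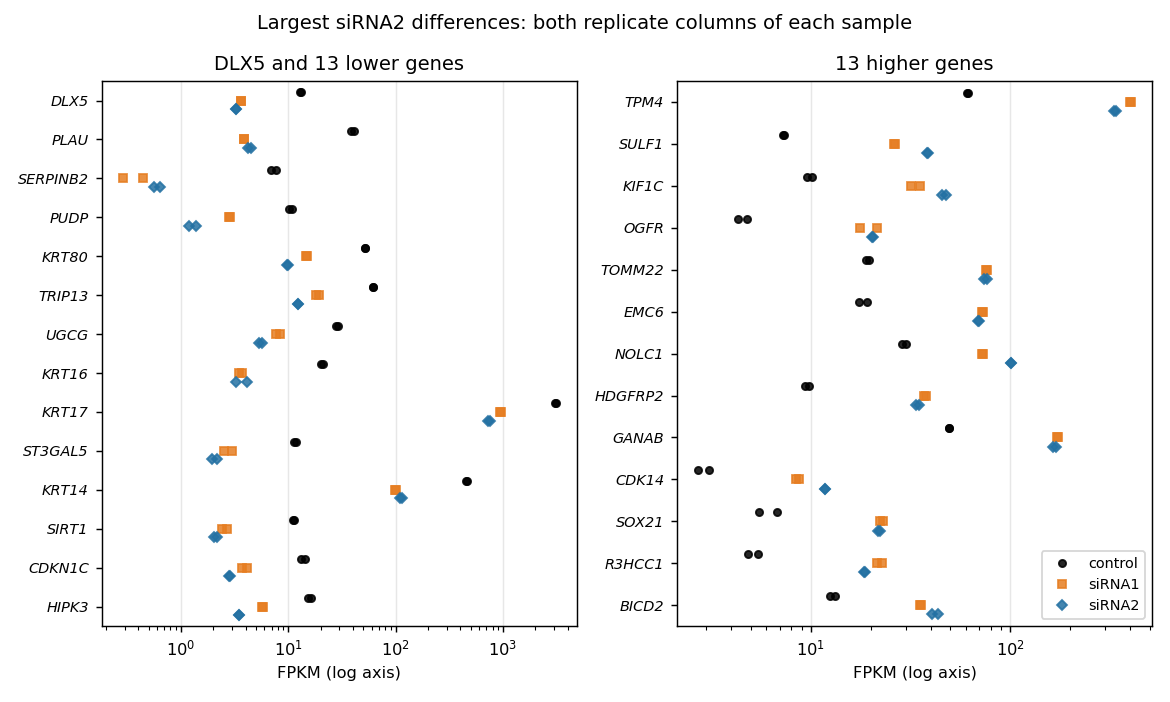
FPKM on a log axis for DLX5 and 13 of the 14 genes farthest below (left) and 13 of the 14 farthest above the control (right), with both replicate columns of each sample as points. The siRNA2 and control points do not overlap in any of these genes, and the siRNA1 points lie mostly near those of siRNA2, as in PLAU at 3.89 FPKM.

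Keratins, the intermediate filament proteins of epithelia, were lower as a group. Of 22 listed, 17 were measured, and 13 (76.5%, beside 1.94% of all genes) were called lower and none higher. The median difference was −1.29 beside 0.01 for all genes. KRT17 was 3032.93 and 3081.00 FPKM in the control and 724.38 and 751.68 FPKM with siRNA2. KRT14, the partner of KRT5 in basal cells, went from 465.64 and 456.07 to 114.29 and 110.77 FPKM, and KRT5 itself from 3137.60 and 3115.71 to 1268.86 and 1279.26 FPKM. KRT13, the keratin of the suprabasal esophagus, was 49.05 and 53.46 against 18.44 and 18.00 FPKM. In these 4 genes all siRNA2 columns lay below the control. Of the keratins of simple epithelia, KRT8 (−0.43) and KRT18 (−0.09) were not called, while KRT7 (−1.27) and KRT19 (−1.12) were. KRT10, of cornifying epidermis, was 21.07 and 20.10 against 23.17 and 20.93 FPKM. The summed level of the 20 keratins with values was 11119 FPKM in the control, 4577 FPKM with siRNA2 and 4550 FPKM with siRNA1. KRT6A, KRT6B and KRT6C are near-identical copies, as are parts of KRT14, KRT16 and KRT17, so the split of fragments among them is uncertain.

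Late differentiation genes differed unevenly. Of 28 cornified envelope genes listed, 12 were measured, with a median of −0.62. Of these, 3 (25.0%, beside 1.94% of all genes) were called lower and none higher. SPRR1B, a cross-linked envelope precursor, went from 16.53 and 16.57 to 4.94 and 4.92 FPKM. TGM1, the transglutaminase that links the envelope, went from 3.80 and 4.27 to 0.96 and 0.87 FPKM, and KLK5, a skin protease, from 2.67 and 3.11 to 0.53 and 0.37 FPKM. Both of these passed the minimum only through the control, so the count and the median are no measure of the list. EVPL (0.07) and CNFN (−0.09), also of the envelope, differed little. CSTA, a protease inhibitor of the envelope, was 101.78 and 102.27 against 123.20 and 119.80 FPKM. Of 24 squamous transcription factors measured, GRHL3 was called lower (19.73 and 20.08 against 5.92 and 6.04 FPKM) and PITX1 higher (18.94 and 18.28 against 40.57 and 38.80 FPKM). Each is 4.17% of the list, beside 1.94% of all genes called lower and 1.04% called higher. For a list of this size these counts are near the shares of all genes. The median of the list was −0.33. FOXE1 (−0.93), BNC1 (−0.96) and ZNF750 (−0.94) lay short of 2-fold.

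Adhesion genes differed both ways. Of the 19 desmosome and hemidesmosome genes, 2 (10.5%, beside 1.04% of all genes) were called higher. None was called lower, beside 1.94% of all genes, a share at which 19 genes may well hold none. PERP, a desmosomal membrane protein, was 97.27 and 95.52 FPKM in the control and 222.78 and 234.57 FPKM with siRNA2. COL17A1, the hemidesmosomal collagen, was 125.95 and 126.81 against 257.73 and 258.10 FPKM. Of 19 tight and adherens junction genes, 4 (21.1%, beside 1.94% of all genes) were called lower, among them CLDN4, CLDN1 and CLDN12. CLDN4, a tight junction claudin, went from 116.43 and 109.74 to 32.64 and 36.29 FPKM, and CLDN1 from 29.18 and 29.71 to 9.38 and 9.39 FPKM.

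Inflammatory mediators differed both ways. Of 31 chemokines and cytokines listed, 20 were measured, with a median of −0.81. Of these, 8 (40.0%, beside 1.94% of all genes) were called lower and none higher. IL1RN, the interleukin-1 receptor antagonist, went from 5.15 and 4.92 to 0.68 and 0.63 FPKM, and IL1B from 5.05 and 5.0 to 0.49 and 1.10 FPKM. IL23A, a subunit of interleukin-23, was 13.97 and 12.49 against 3.72 and 3.89 FPKM. CXCL8, the neutrophil chemokine, was 38.43 and 39.35 against 17.40 and 16.97 FPKM. Several of the 8 passed the minimum only through the control, so their number and the median are no measure of the group. The summed level of the list was 368 FPKM in the control, 381 FPKM with siRNA2 and 464 FPKM with siRNA1. CXCL14 was 161.87 and 161.59 FPKM in the control and 245.86 and 253.36 FPKM with siRNA2, and CXCL1 columns overlapped between the samples. In the NF-κB list 4 of 23 genes (17.4%) were called lower and 1 (4.35%) higher, beside 1.94% and 1.04% of all genes. NFKBIA, the inhibitor that is itself a target of the pathway, was 167.39 and 167.03 against 69.18 and 74.36 FPKM, while NFKBIB was higher (24.12 and 24.71 against 53.60 and 55.04 FPKM). None of the 20 interferon response genes measured was called, beside 2.98% of all genes called either way, a share at which 20 genes may well hold none. The median of the list was −0.25.

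Of 10 genes of the EGFR family and its ligands, 2 were called lower, a share of 20% beside 1.94% of all genes. EGFR, the receptor, was 154.40 and 147.16 FPKM in the control and 62.87 and 59.60 FPKM with siRNA2. ERRFI1, its feedback inhibitor, was 28.32 and 29.29 against 10.52 and 11.04 FPKM. The ligands AREG and EREG differed by −0.12 and 0.02. Among the 22 YAP and TEAD targets 5 (22.7%, beside 1.94% of all genes) were called lower and none higher. The classical targets CYR61 (−0.41) and CTGF (−0.14) were not called. AXL, a receptor kinase, went from 16.21 and 15.21 to 5.95 and 5.79 FPKM.

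Among 27 p53 targets measured, 6 (22.2%, beside 1.94% of all genes) were called lower and none higher. CDKN1A, the gene of the cell cycle inhibitor p21, was 64.17 and 62.06 FPKM in the control and 17.33 and 16.10 FPKM with siRNA2, and GADD45A, a stress sensor, was 119.71 and 109.00 against 46.72 and 48.83 FPKM. MDM2 (−0.34) and BAX (−0.12) were not called. CCND1, the gene of cyclin D1, was 363.38 and 350.14 against 157.06 and 160.02 FPKM, and with siRNA1 it was lower still, at 87.4 FPKM. None of the 42 DNA replication genes was called, beside 2.98% of all genes called either way, a share at which 42 genes may hold none. Their median was 0.16, and in 32 of the 42 the siRNA2 columns lay above the control, beside 41.0% of all genes. RRM2, a subunit of ribonucleotide reductase, was 63.30 and 65.67 against 97.73 and 97.81 FPKM. Of 39 mitosis genes, BIRC5 was called higher (28.81 and 28.57 against 60.61 and 62.54 FPKM) and MAD2L1 lower (37.19 and 35.20 against 14.22 and 14.24 FPKM), each 2.56% of the list and near the shares of all genes. The 45 cytosolic ribosomal protein genes had a median of −0.01. None of these 45 and none of the 13 small RNA silencing genes was called. At a share of 2.98% of all genes, lists of these sizes may also hold none.

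**Figure D3:**
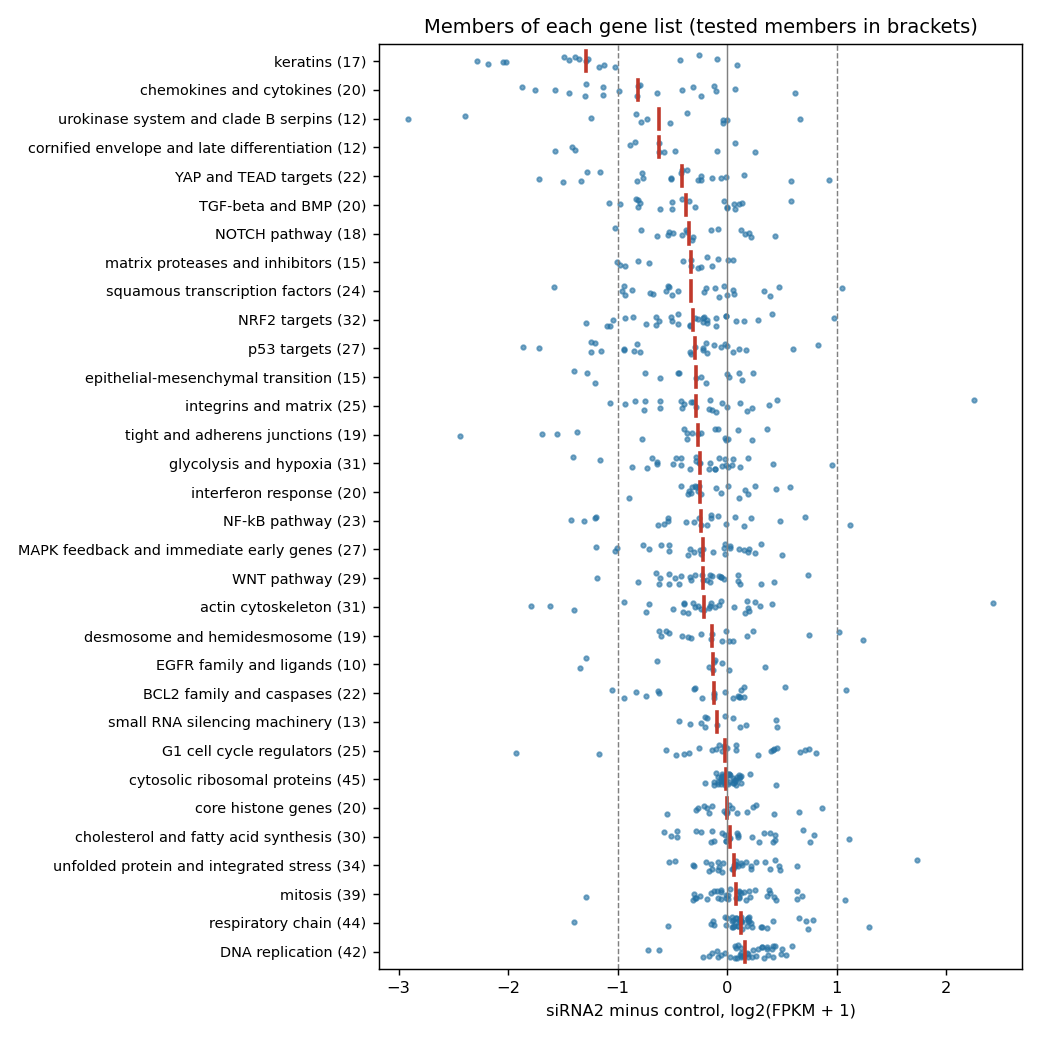
Differences between siRNA2 and control on the log2(FPKM + 1) scale for the measured members of the 32 lists with at least 10 of them. Points are genes, red bars list medians and dashed lines the 2-fold limits. Keratins (median −1.29) lie lowest and DNA replication genes (0.16) highest.

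In the 3′ UTRs of the genes called lower, 7-letter stretches of the first word were the words most in excess. The longest 3′ UTR of each gene was read from GENCODE release 29, and the words were picked after the values were known, from searches over several gene sets, so their shares are descriptions and their part in the differences was not tested. ACTCAGT and CTCAGTA ranked 1 and 2 of 15623 words by the excess of their share among lower genes over that among all genes, scaled by its binomial spread. At least 1 of them was present in 100 of 232 genes called lower (43.1%), in 10 of 124 called higher (8.06%) and in 2279 of all 11910 genes with a 3′ UTR (19.1%). Median 3′ UTR lengths in the 3 sets were 1338, 1178 and 1350 bases. Sites in some genes with lower levels are given to show the shared letters, with the word in capitals, 30 bases each.
AIDA, base 40 of the 3′ UTR: tgaattttaccACTCAGTAgaaaccatcat
AIDA, base 1649: ccctgtggagtACTCAGTAccttttgtttg
BZW1, base 1084: tctcttaatatACTCAGTAatgactcaagc
EGFR, base 763: attgttttgaaACTCAGTAtgctgcccctg
MAD2L1, base 349: caagtagtttgACTCAGTAtaggtagggag
PUDP, base 998: tttatagatttACTCAGTctttaaaattcg
A match is a stretch of letters and not a shown site of pairing. Of 2545 mature human microRNAs in the RefSeq table (GRCh38.p14), 0 had bases 2 to 8 that pair with ACTCAGT. The count was also 0 for TCAATCA, of the second word, and for TCGGAGA, of a word described below. It therefore does not set the first word apart.

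Genes whose 3′ UTRs held more of the first word had medians further below the control with siRNA2. The word was picked for its excess among genes called lower with siRNA2, so this order follows in part from that choice. The medians are descriptions, and those of both siRNAs share the control sample. To compare 3′ UTRs of similar length, those of 1000 to 2500 bases were taken. With all 8 letters, 85 genes had a median difference of −0.19 from the control with siRNA2 and −0.10 with siRNA1, and 10.6% were called lower with siRNA2 and 8.24% with siRNA1. With the first 7 letters, 322 genes had medians of −0.13 and −0.05. The last 7 letters gave 239 genes and −0.09 with both siRNAs. The middle 6 letters alone gave 963 genes with −0.01 and 0.02. With none of these, 2183 genes had a median of 0.03 with either siRNA, and 1.28% were called lower with siRNA2 and 2.75% with siRNA1. The shift was thus small for most genes that held the word.

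**Figure D4:**
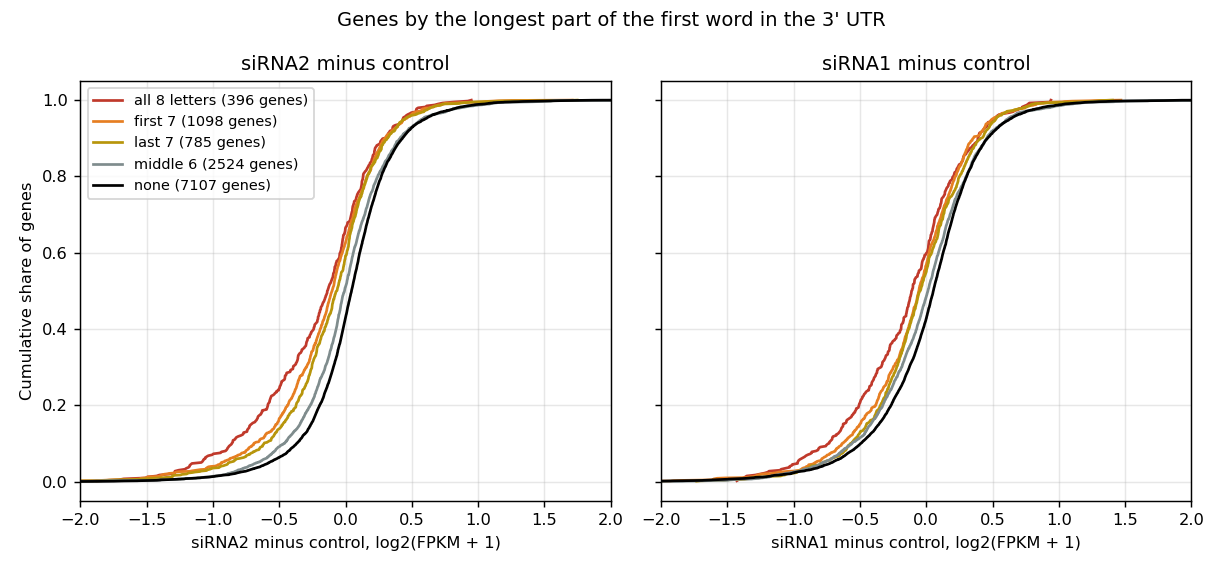
Cumulative share of genes against the difference from the control on the log2(FPKM + 1) scale, for siRNA2 (left) and siRNA1 (right), by the longest part of the first word in the 3′ UTR, over all lengths. With siRNA2 the 396 genes with all 8 letters lie farthest to the left (median −0.14) and the 7107 with none to the right (0.05). The siRNA1 curves of these 2 classes have medians of −0.11 and 0.05. The word was picked from the genes called lower with siRNA2.

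The word was unevenly spread over the groups described above. Of the 13 keratins called lower 12 lacked it, as did all 8 cytokines, the 3 urokinase and serpin genes, the 3 cornified envelope genes, and DLX1, DLX2 and DLX3. The 16 measured keratins without it had a median of −1.28. It was present in 3 of the 4 junction genes called lower, among them CLDN1 and CLDN12, in 3 of the 5 YAP and TEAD targets and in both glycolysis genes called lower, NDRG1 and PFKM. The 14 junction genes without it had a median of −0.10, beside −0.27 for all 19. Over the 8437 genes whose 3′ UTRs held none of the 7-letter stretches of the 3 words named in this text, 116 were called lower (1.37%) and 87 higher (1.03%).

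Genes called higher were marked by a further word. TCGGAGA ranked 1 of 15623 words among them, and it or the other 7-letter part of TCGGAGAA was in 25 of 124 genes called higher (20.2%), 6 of 232 called lower (2.59%) and 486 of all 11910 (4.08%). The 70 genes with all 8 letters had a median of 0.24 with siRNA2 and 0.23 with siRNA1. As the word was picked from the genes called higher, these values are only descriptions. The DLX5 transcript does not hold it. The words did not keep to a single direction. CDK14, PITX1, NOLC1 and BICD2, all called higher, also hold 7 letters of the first word, and ST3GAL5, called lower, holds TCGGAGA. Sites in TPM4 and CDK14, both among the 14 genes farthest above the control, and in PITX1 show TCGGAGAA in capitals.
TPM4, base 147 of the 3′ UTR: aatattttgtaTCGGAGAAgctttgagcac
CDK14, base 2126: aggcagcttctTCGGAGAAgtgaaatataa
PITX1, base 241: gcaaaaagacgTCGGAGAAaagtgccgcga
Both comparisons share the control sample, so whether this word goes with the knockdowns or with the control cannot be told apart.

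Promoters were read from 250 bases before to 50 bases after the start in RefSeq (GRCh38.p14), for 175 of the genes called lower, 99 called higher and 9888 in all. The homeobox core TAATT, searched on both strands, was in 12.6% of lower, 15.2% of higher and 13.8% of all promoters. The AP-1 motif TGANTCA was in 20 of the 175 lower promoters (11.4%), in 4.04% of the higher and in 4.33% of all. A 10-letter NF-κB motif, searched on both strands, was in 2.86%, 2.02% and 1.56%. AP-1 matches in lower genes named above are shown in capitals on the strand of the gene.
SERPINB2, starting 102 bases before the start: gagtaaaatgtTGAATCActcaaaggacac
SPRR1B, 141 bases before: atcacaaaagtTGAGTCAacaggtgggtga
PLAUR, 186 bases before: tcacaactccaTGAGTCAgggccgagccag
IL23A, 77 bases before: cccacctgctgTGAGTCAcctgctggtata
A match also lies before PERP, 1 of the genes called higher.

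Few genes set siRNA2 apart from siRNA1. Directly compared, siRNA2 was at least 2-fold above siRNA1 in 49 genes (0.409%) and below it in 8 (0.0667%). At 2-fold from both the control and siRNA1, 3 genes were lower (0.0250%) and 1 higher (0.00834%). AIDA, an axin-binding protein, was 33.25 and 32.92 FPKM in the control, 19.61 and 18.71 with siRNA1 and 8.4 and 8.19 with siRNA2. ANP32B, a histone chaperone, was 326.20 and 337.28 FPKM in the control, 342.60 and 328.29 with siRNA1 and 156.15 and 163.61 with siRNA2. PAQR3, a Golgi protein that tethers RAF kinase, was 11.58 and 10.43, then 7.30 and 7.30, then 2.89 and 3.25 FPKM. The siRNA2 columns of these 3 genes lay below all others, and ANP32B alone was at the control level with siRNA1. The 3′ UTRs of AIDA and PAQR3 hold the first word or 7 letters of it, and that of ANP32B does not. The gene that was higher, ACTA1 (skeletal actin), rests on 1 column: its siRNA2 columns were 0.70 and 3.13 FPKM, beside 0.13 and 0.12 in the control.

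At 1.5-fold, a limit looked at after the values were seen, 77 genes were lower with siRNA2 than in both other samples (0.642%) and 22 were higher (0.183%). BZW1, a regulator of translation initiation, was 116.49 and 114.83 FPKM in the control, 85.4 with siRNA1 and 42.41 and 42.52 with siRNA2. SEC23A, a coat protein of vesicles that leave the endoplasmic reticulum, was 80.99 and 74.06, then 40.2, then 19.70 and 20.33 FPKM. HIKESHI, a nuclear import carrier of heat shock proteins, was 27.82 and 27.53, then 30.8, then 14.70 and 15.45 FPKM. BZW1 and SEC23A thus lay between the other samples with siRNA1, and HIKESHI did not. Of the 77, 47 (61.0%) held 7 or 8 letters of the first word, beside 19.1% of all genes, and CTCAGTA ranked 1 of 15623 words among them. As the first word was picked from the same differences between siRNA2 and control, this share is only a description. The median 3′ UTR of the 77 was 1880 bases, longer than the 1350 bases of all.

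Among the 22 higher genes, SETD7, a lysine methyltransferase, was 3.94 and 3.96 FPKM in the control, 6.68 with siRNA1 and 13.28 and 12.43 with siRNA2. HSDL2, a peroxisomal protein, was 11.61 and 11.82, then 12.8, then 25.74 and 26.44 FPKM. In both genes siRNA1 lay nearer to the control. LPCAT1, a lysophospholipid acyltransferase, was 13.70 and 12.40 FPKM in the control, 7.82 and 8.20 with siRNA1 and 22.11 and 20.91 with siRNA2, and CDC25A, a phosphatase that activates cyclin-dependent kinases, was 12.97 and 13.66, then 9.49 and 9.33, then 21.75 and 21.73 FPKM. In both, siRNA1 lay below and siRNA2 above the control. The second word was found as the one most in excess among the 292 genes with a 3′ UTR that were at least 1.5-fold higher with siRNA2 than with siRNA1, so its share in these 22 is only a description. In whole or with 7 letters it was in 11 of the 22 (50%) and in 12.6% of all genes, LPCAT1 with all 8 letters. Over 3′ UTRs of 1000 to 2500 bases, the 87 genes with all 8 letters had a median of −0.04 with siRNA2 and −0.28 with siRNA1. The site of LPCAT1 is shown for comparison with that of DLX5 above.
LPCAT1, base 1594 of the 3′ UTR: tcagctccgttTCAATCAAtcacctcgact

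**Figure D5:**
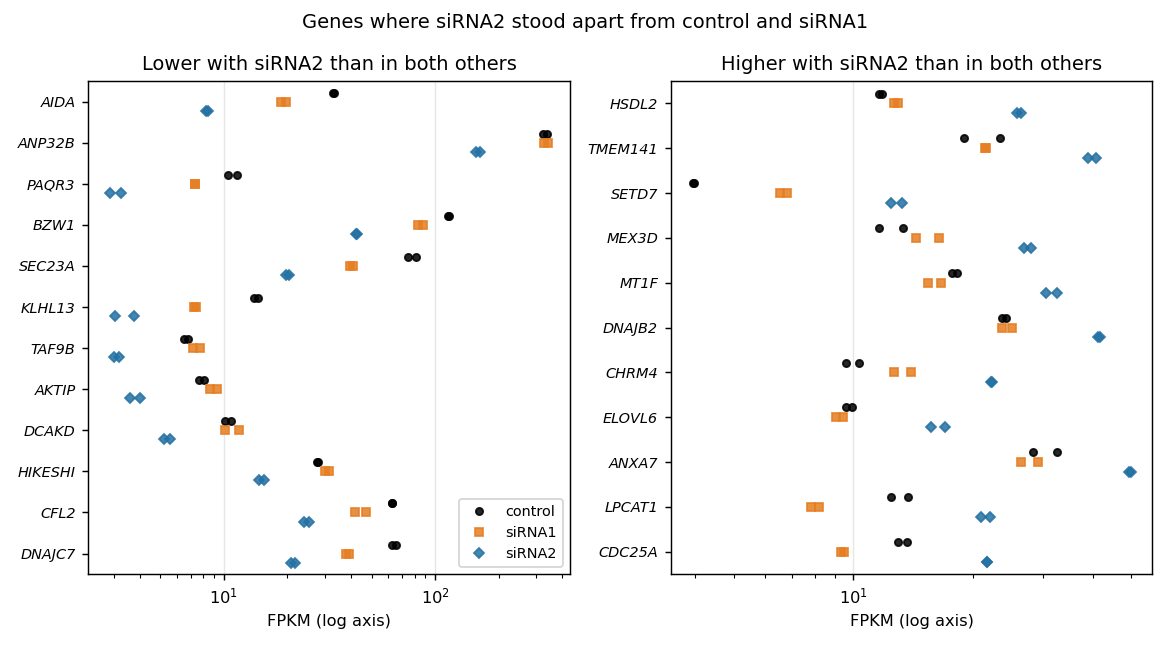
FPKM on a log axis of the 12 genes that stood farthest below (left) and 11 of the 12 that stood farthest above (right) both other samples with siRNA2 at 1.5-fold or more, with both replicate columns of each sample. AIDA and SEC23A show siRNA1 between control and siRNA2, while ANP32B, HIKESHI and HSDL2 have siRNA1 at or near the control.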

How the data were processed

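RNA sequencing of 1 negative control sample and 2 DLX5 siRNA samples was analysed. Per the file headers, the authors deposited FPKM per gene in 2 replicate columns and as a mean per sample, with the authors' log2 fold changes, p-values and q-values. RSEM 1.2.12, HISAT2 2.0.4, Bowtie2 2.2.5, DESeq 3.4 and the build hg19 are named, without roles, in the submitters' processing notes. RSEM shares fragments among similar transcripts by estimation, which makes near-identical genes uncertain.

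From the 19280 lines, 14 that lacked a gene ID and 2047 genes without a value were left out. The sources used here give no strand setting. Symbols that had become dates were restored for 26 genes through the reference table, which matched 17182 IDs. Of the per-sample columns, 2 share a heading and were not used, so replicate column 1 of a siRNA sample was taken as the mean multiplied by 2, minus column 2. Depth is not in the table and was estimated from the steps between low values (83.3% to 89.3% of them within 0.2 of a whole read). The differences used a pseudocount of 1 FPKM, which understates those of low genes, and folds are ratios of FPKM. A trended fit with limma 3.58.1 (R 4.3.3) and Benjamini-Hochberg adjustment was run on the replicate columns and tested on simulated data. In 20 simulated runs with 200 of 11995 genes changed, 7.9% of the calls at an adjusted p under 0.05 were false. Far fewer genes were changed in those runs than were called in the data. Python 3.11.15 did the rest. Alternatives were other pseudocounts, minimums, folds, scalings, left-out columns and a replicate block.

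The members, gene lists and words were chosen with earlier results of these data known. Genes were named by rule: the DLX genes and TP63, the 14 largest differences each way at 5 FPKM or more without column overlap, the 12 largest that set siRNA2 apart, and up to 5 called members per list. Not all are printed, and some are not reported here. List members that were not called are named for contrast, and the genes apart at 1.5-fold were chosen after their values were seen.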

Additional observations from a re-analysis of the deposited data

Results flagged for a closer look

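In 8 named genes siRNA2 and siRNA1 differed by more than 2-fold against the same control, and each sample's replicate columns lay apart from the other's. Over all genes measured, siRNA2 was at least 2-fold above siRNA1 in 49 and below it in 8. The named genes do not show that balance, as some were named for standing apart from both other samples. The difference, siRNA2 minus siRNA1 on the log2(FPKM + 1) scale, was 1.32 in LPCAT1, 1.13 in CDC25A and 1.11 in ACTA1. It was −1.12 in AIDA, −1.06 in AKTIP, −1.06 in ANP32B, −1.04 in TAF9B and −1.03 in PAQR3. With 1 sample per siRNA these differences between siRNAs were not tested. LPCAT1 and CDC25A lay above the control with siRNA2 and below it with siRNA1. AKTIP, part of an endosome tethering complex, was 7.64 and 8.08 FPKM in the control, 9.32 and 8.63 with siRNA1 and 3.99 and 3.59 with siRNA2. TAF9B, a subunit of transcription initiation complexes, was 6.44 and 6.74, then 7.69 and 7.15, then 3.02 and 3.19 FPKM. Both thus lay slightly above the control with siRNA1 and below it with siRNA2. ACTA1 was 0.70 and 3.13 FPKM in the siRNA2 columns, which makes its value the least certain of the 8 named genes.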

How the results depend on the processing

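A pseudocount of 0.1 FPKM gave 205 higher and 395 lower genes, 6 and 16 beyond both other samples, and −1.97 for DLX5. At 1.5-fold there were 554 higher and 817 lower genes, 22 and 77 beyond both. At 3-fold there were 19 and 38, with 0 and 0 beyond both. A minimum of 5 FPKM left 0 genes higher than both. Among genes without the 7-letter stretches, 116 were lower, 1 of them beyond both. That subset was added after seeing the data, has fewer genes tested and rests on words picked from these data. Quantile normalization put DLX5 at −1.69. Leaving out 1 replicate column in turn gave 126 to 138 higher and 234 to 237 lower genes, and −1.73 to −1.71 for DLX5. It gave 1 to 2 genes higher and 3 to 6 lower than both, with 2 higher without control column 2, 5 lower without siRNA2 column 1 and 6 without siRNA2 column 2. The limma counts ranged over 2731 to 3048 higher and 2613 to 2722 lower; with 2-fold required as well they were 121 and 229. A replicate block gave 3718 and 3330, and 3652 and 3290 with the column numbers crossed. The correlation of column differences between the samples was −0.101 across genes, so the numbers do not pair the columns. With 1 sample per group, no value covers the spread between cultures, and low genes rest on few reads.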
